A study of Mus musculus with 8 samples.

Results

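In muscle stem cells, 1618 stretches of acetylated chromatin lay under 2 or more separate H3K27ac peaks in each library of freshly isolated cells and under exactly 1 peak in each library of activated cells. They are called fused regions here. To find them, the peaks of all 4 H3K27ac libraries were merged into 72585 regions wherever they overlapped by 1 base or more. Fused regions made up 2.23% of these and 8.3% of the 19493 regions with a peak in all 4 libraries. The reverse class, with 2 or more peaks in each library of activated cells and 1 in each library of freshly isolated cells, held 232 regions (1.19%), so that fused regions were 6.97 times as many. The members were selected on measured values, the number of peaks per region in the ASC and FISC libraries, and every measure of activated against freshly isolated cells is therefore given as a description without a test.

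The cells were satellite cells of C57BL/6 mouse skeletal muscle, taken either without treatment (freshly isolated, FISC) or 2.5 days after the muscle was injured with BaCl2 (activated, ASC). Each condition had 2 H3K27ac libraries, made by ChIPmentation, in which a transposase cuts and tags antibody-bound chromatin, and 2 input libraries, which were not used here. Nothing in the labels says whether replicates came from separate animals or pools, nor how the cells were purified, so differences between replicates may be technical. Values of a pair of libraries are given in the order replicate 1, replicate 2.

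Satellite cells lie quiescent under the basal lamina of the muscle fibre and enter the cell cycle after injury. H3K27ac, acetylation of lysine 27 of histone H3, marks nucleosomes at active promoters and enhancers. At an active promoter the nucleosomes on both sides of the start site carry the mark, and the stretch just upstream of the start site is commonly poor in nucleosomes. A peak caller reports a peak where the signal stays above a threshold, so a dip below that threshold splits 1 acetylated domain into separate peaks. The mark is read from a mass of cells: more cells with the mark and more of the mark per cell cannot be told apart.

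Some of the gaps between the separate FISC peaks lay on the start site itself. The 250 bases before the start site are shown for 5 genes whose start site lay in such a gap in both FISC libraries and under 1 peak in both ASC libraries. E2f7, Dusp5, Ccne1 and Mamstr were named by the rules given under the processing of the data, and Sdc3, a listed gene, was added after its values were seen. They are read 5′ to 3′ in gene direction from RefSeq (build GRCm38.p6). Capitals mark matches on either strand to GGGCGG (the GC box), CCAAT (the CCAAT box), TATAAA (the TATA box) or TGANTCA (the AP-1 element), and neighbouring matches may run together. E2f7, a repressor of the E2F family that acts in the cell cycle, lies at chr10:110745189-110745438 (+ strand). Dusp5, a phosphatase of ERK, lies at chr19:53528895-53529144 (+). Sdc3, a syndecan of satellite cells, lies at chr4:130792287-130792536 (+), Ccne1, cyclin E1, at chr7:38107491-38107740 (- strand) and Mamstr, a coactivator of the MEF2 factors of muscle, at chr7:45639727-45639976 (+).
E2f7: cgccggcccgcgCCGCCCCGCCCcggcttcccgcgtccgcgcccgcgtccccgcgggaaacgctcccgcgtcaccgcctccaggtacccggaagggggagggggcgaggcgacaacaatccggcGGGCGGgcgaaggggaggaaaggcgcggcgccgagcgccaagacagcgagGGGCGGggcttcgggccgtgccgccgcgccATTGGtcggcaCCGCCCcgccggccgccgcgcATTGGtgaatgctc
Dusp5: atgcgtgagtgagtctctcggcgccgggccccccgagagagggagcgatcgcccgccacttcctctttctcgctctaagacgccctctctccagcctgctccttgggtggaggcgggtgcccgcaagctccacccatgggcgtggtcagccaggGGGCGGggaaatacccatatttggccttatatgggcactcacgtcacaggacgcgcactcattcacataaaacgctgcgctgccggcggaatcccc
Sdc3: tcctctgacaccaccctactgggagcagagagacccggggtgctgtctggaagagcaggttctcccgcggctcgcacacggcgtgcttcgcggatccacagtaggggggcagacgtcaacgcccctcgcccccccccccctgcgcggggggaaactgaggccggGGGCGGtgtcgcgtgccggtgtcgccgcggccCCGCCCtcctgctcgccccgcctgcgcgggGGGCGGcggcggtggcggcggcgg
Ccne1: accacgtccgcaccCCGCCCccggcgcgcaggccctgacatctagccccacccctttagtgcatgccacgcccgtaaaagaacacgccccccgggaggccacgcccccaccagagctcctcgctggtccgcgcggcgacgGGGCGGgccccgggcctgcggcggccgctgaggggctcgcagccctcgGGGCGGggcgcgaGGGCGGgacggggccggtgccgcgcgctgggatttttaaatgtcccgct
Mamstr: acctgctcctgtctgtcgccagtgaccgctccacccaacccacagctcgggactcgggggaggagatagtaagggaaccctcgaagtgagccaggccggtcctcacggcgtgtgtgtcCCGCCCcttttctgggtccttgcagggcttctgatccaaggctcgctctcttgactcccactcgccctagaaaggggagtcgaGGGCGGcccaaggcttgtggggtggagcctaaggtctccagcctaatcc
The E2f7 stretch held 5 GC boxes and 2 CCAAT boxes. Ccne1 had 4 GC boxes, Sdc3 had 3, Mamstr had 2 and Dusp5 had 1. None of the 5 stretches held TATAAA or TGANTCA. Counted from the start site, the gap over it ran from -95 to 224 and from -327 to 201 in the FISC libraries at E2f7, and from -264 to 85 and from -220 to 63 at Ccne1. It ran from -61 to 34 and from -123 to 13 at Dusp5, and from -101 to 16 and from -77 to 11 at Sdc3. At Mamstr the gap was wider and lay mostly upstream, from -1166 to 61 and from -377 to 175. In each of the 5 the ASC peaks ran across the whole gap of both FISC libraries.

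Most fused regions were simple: 1024 (63.3%) held exactly 2 peaks in each FISC library. The FISC libraries held 3786 and 3788 peaks in these regions, with median widths of 577.5 and 571 bp, separated by 2168 and 2170 gaps. The median gap was 197 and 203 bp wide, with 10th to 90th percentiles of 93 to 515 bp and 96 to 521 bp. Gaps under 200 bp made up 50.4 and 48.9%, gaps of 500 bp or more made up 10.8 and 11.0%, and the widest measured 3561 and 4733 bp. No 2 peaks of any list lay closer than 76 bp, so dips narrower than that could not be seen. Gap bases were covered in ASC almost throughout, as the choice of members favours: 92.6 and 97.1% of the gap bases of FISC replicate 1, and 93.0 and 97.4% of those of FISC replicate 2, lay under the peak of ASC replicate 1 and 2. In 1317 members (81.4%) the gaps of the 2 FISC libraries shared bases, and the shared gap had a median width of 159 bp.

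Most members were joined as the name says, but not all. The single ASC peak touched 2 or more separate FISC peaks in all 4 pairings of an ASC with a FISC library in 1374 members (84.9%). In 37 members (2.29%) it did so in no pairing. In the reverse class, 79 of 232 regions (34.1%) were joined in all 4 pairings and 78 in none. Counted by the stricter definition, which was chosen after seeing the data, there were 1374 fused and 79 reverse regions.

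**Figure D1:**
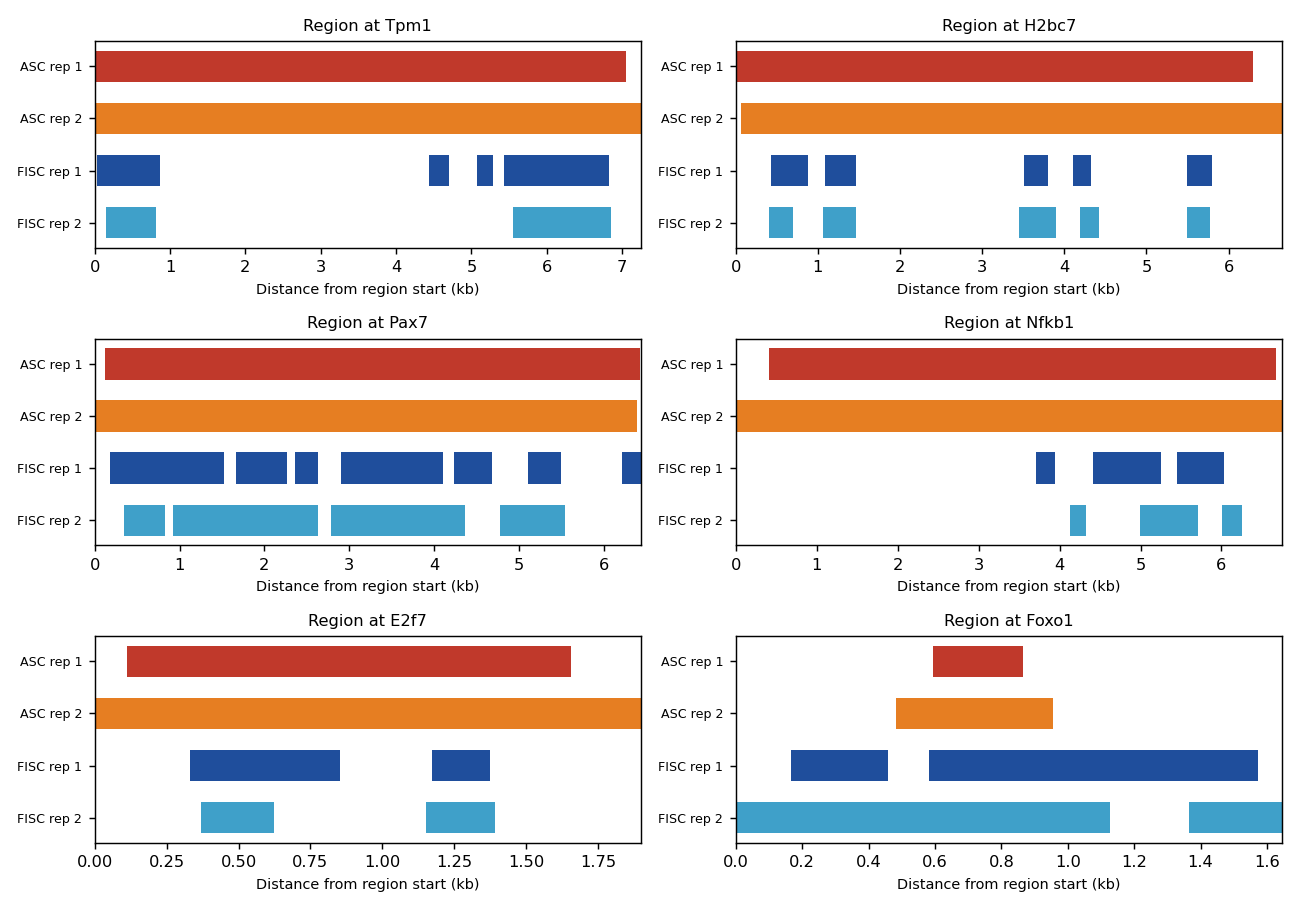
Peaks of the 4 libraries (bars, 1 row per library) along 6 fused regions, in kb from the start of the region. At Tpm1, H2bc7, Pax7, Nfkb1 and E2f7 the ASC peak spans the separate FISC peaks. At Foxo1 the ASC peaks of 271 and 472 bp lie inside a single peak of FISC replicate 2. There the peak of ASC replicate 2 also reaches into the gap of FISC replicate 1.

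The 2 FISC libraries often disagreed on whether a region was split. Regions with 2 or more peaks in FISC replicate 1, 1 peak in FISC replicate 2 and 1 in each ASC library numbered 1386, and the opposite disagreement 1384. On the ASC side 968 regions were split in ASC replicate 1 alone and 539 in ASC replicate 2 alone. Among regions with a peak in all 4 libraries, 30.3 and 30.3% had 2 or more peaks in the FISC libraries, and 21.0 and 13.3% in the ASC libraries. Both FISC libraries thus lay above both ASC libraries, and the ASC libraries differed from each other by more than the FISC libraries did. Each library takes part in the count. Fused regions numbered 2977 without ASC replicate 1, 2380 when ASC replicate 2 was dropped, and 2925 and 2947 when FISC replicate 1 or 2 was dropped. The reverse counts were 553, 651, 465 and 473 in the same order.

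Regions chosen in 1 replicate of each condition were then read in the other replicate, which had no part in the choice. Of 3958 regions with separate FISC peaks and 1 ASC peak in replicate 1, 48.9% (95% Wilson interval 47.3 to 50.4%) showed the same pattern in replicate 2, against 18.1% of all 22892 regions with a peak in both replicate 1 libraries. Chosen in replicate 2, 35.0% of 4875 regions (33.7 to 36.3%) showed it in replicate 1, against 15.1% of 23653. The opposite pattern appeared in 4.40 and 9.81% of the chosen regions, against 4.98 and 7.66% of all regions. Reverse regions were chosen and read in the same way. Of 1071 chosen in replicate 1, 16.6% were reverse and 21.7% were fused in replicate 2, and of 891 chosen in replicate 2, 14.5% were reverse and 19.4% fused in replicate 1. Chosen fused regions were wider (medians 2190 and 2326 bp) than all regions (1380 and 1486 bp), and the part of width in these shares was not tested. Intervals of this kind cover counting error only, and 1 library per condition allows no test.

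**Figure D2:**
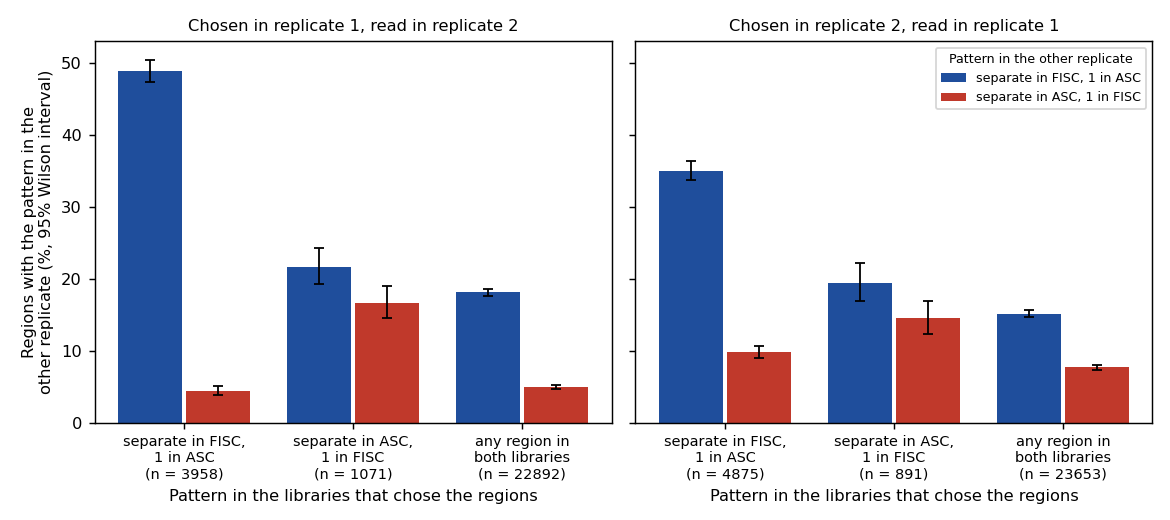
Share of regions (%, with 95% Wilson intervals) that showed each pattern in the replicate that did not choose them, for regions chosen as fused, as reverse, or by having a peak in both libraries. Regions chosen as fused show the same pattern in 48.9 and 35.0%, while regions chosen as reverse are reverse in 16.6 and 14.5% and fused in 21.7 and 19.4% in the other replicate.

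Fused regions were covered over a longer stretch in ASC. The median member had 2144 and 2322 bp under peaks in the ASC libraries and 1533 and 1520 bp in the FISC libraries. Summed over members this came to 4.11 and 4.44 Mb against 2.97 and 2.99 Mb. In 1264 members (78.1%) both ASC values lay above both FISC values, where the share over all regions with a peak in all 4 libraries was 57.1%. In 125 members (7.73%) both lay below, where the share over all such regions was 13.6%. The median ratio of ASC to FISC covered length was 1.37 in fused regions, 1.17 in regions with 1 peak in each library and 1.22 in the reverse class. Because the rule used this contrast, nothing is read from the difference in these shares.

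Bases under a peak of both ASC libraries and of no FISC library are called bridged here. They came to 973 kb in all, with a median of 337.5 bp per member. Of these bases, 42.0% lay between the outermost FISC peaks and 58.0% outside them, so more of them lay at the flanks than in the gaps. The ASC summit, the point of highest signal, lay in the strongest FISC peak in between 75.1 and 76.8% of members over the 4 library pairings, in another FISC peak in between 17.9 and 19.3%, and in a gap in between 3.28 and 3.77%. In 1412 members (87.3%) both ASC summits lay in a peak of both FISC libraries, and in 5 members both lay in a gap of both. The ASC summits of the replicates were a median of 53 bp apart. Ranked within its own list by the authors' fold enrichment, the strongest FISC peak of a member had a median percentile of 76.8 and 76.1, the weakest 41.8 and 38.4, and the ASC peak 82.8 and 84.4.

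**Figure D3:**
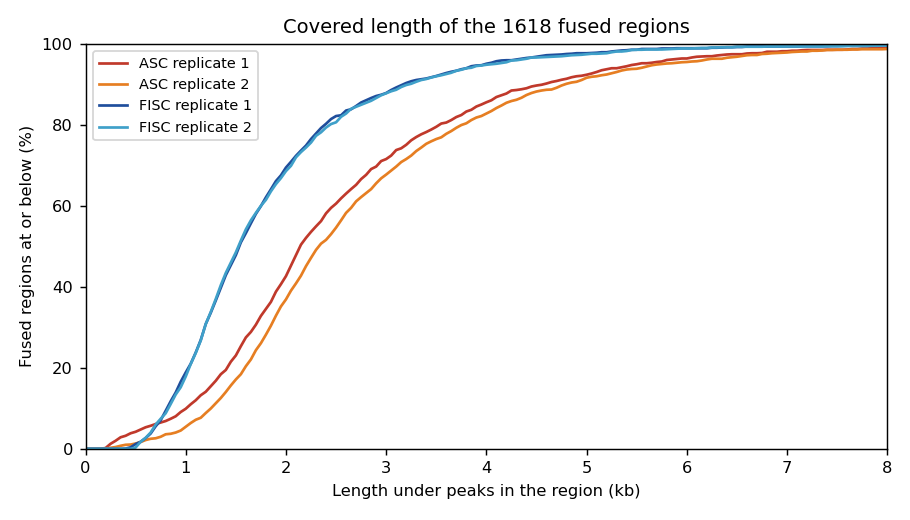
Cumulative share of the 1618 fused regions (y axis, %) by the length under peaks in the region (x axis, kb), 1 line per library. The ASC lines, with medians of 2144 and 2322 bp, lie to the right of the FISC lines, with medians of 1533 and 1520 bp, except among the shortest regions; a few longer regions lie beyond the axis.

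Of the fused regions, 773 (47.8%, 95% Wilson interval 45.3 to 50.2%) lay within 2 kb of a transcription start site, 502 (31.0%) in gene bodies and 343 (21.2%) between genes. Regions with 1 peak in every library lay at start sites in 65.1% (64.2 to 66.1%), all regions with a peak in all 4 libraries in 55.2% (54.5 to 55.9%) and reverse regions in 38.4% (32.3 to 44.8%). Median widths were 2492 bp for fused regions, 1397 bp for regions with 1 peak in every library and 1800 bp for all regions seen in 4 libraries. The widest gap of a member had a median of 187 and 199 bp in the FISC libraries at start sites, 253.5 and 243 bp in gene bodies and 248 and 240 bp between genes. When peaks closer than 300 bases were joined before counting, 823 fused regions were left, 34.8% of them at start sites. Joining in all 4 library pairings was seen in 89.4% of members at start sites, 80.9% in gene bodies and 80.8% between genes.

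At start sites, coverage in FISC dipped just upstream of the start site. The RefSeq promoter table placed 816 start sites in 599 fused regions. At 100 bp upstream of the start site, 60.3 and 56.3% of them lay under a peak in the FISC libraries, against 96.4 and 98.2% in the ASC libraries. Farther upstream, at 400 bp, the FISC shares were 80.3 and 79.9%, and at 200 bp downstream they were 93.9 and 94.1%, so that the dip stood between 2 covered shoulders in both FISC libraries. ASC shares at those places were 89.6 and 92.2%, and 98.3 and 98.9%. In regions with 1 peak in each library, with 6036 start sites, the shares at 100 bp upstream were 80.0 and 78.2% in FISC and 85.7 and 89.5% in ASC. The 76 start sites of the reverse class had 86.8 and 82.9% in FISC and 84.2 and 81.6% in ASC there. A gap in FISC is given by the rule, but its place relative to the start site is not. ASC in fused regions, FISC in the reverse class and every library in regions with 1 peak each could hold no gap by the rule. Nothing is therefore read from their shares beside the dip.

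**Figure D4:**
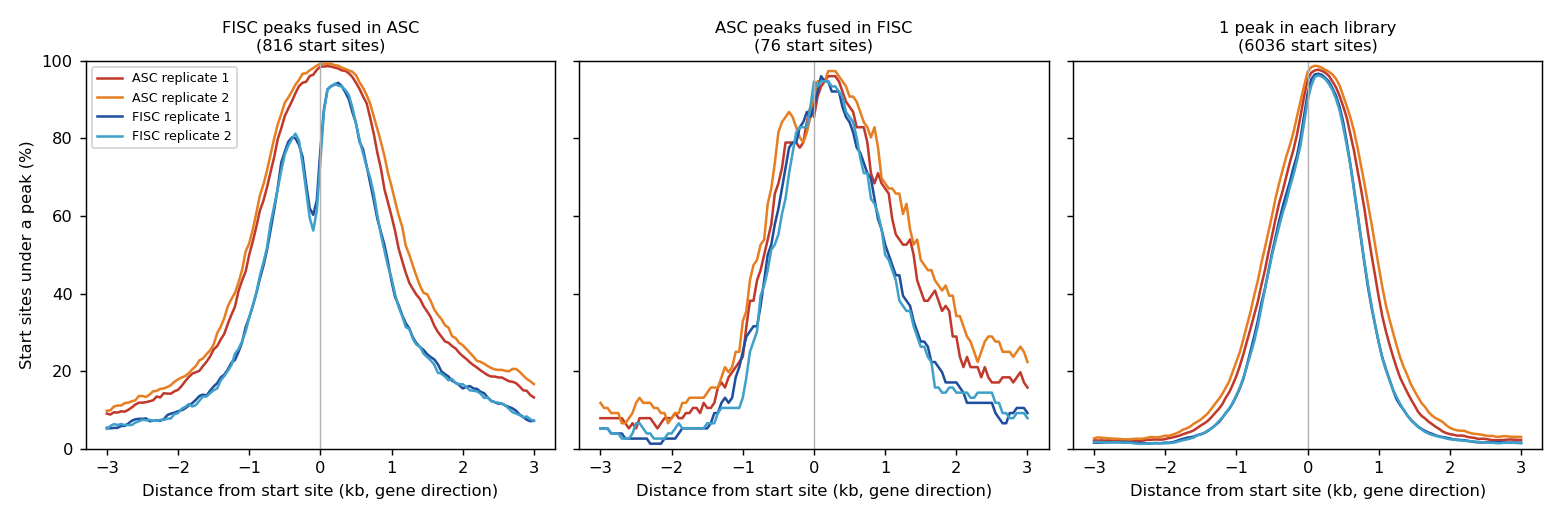
Share of start sites under a peak (y axis, %) by distance from the start site (x axis, kb, negative upstream in gene direction), 1 line per library, for fused regions (816 start sites), the reverse class (76) and regions with 1 peak in each library (6036). In fused regions both FISC lines dip to 60.3 and 56.3% at 100 bp upstream, where the ASC lines, which can hold no gap by the rule, stand at 96.4 and 98.2%.

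The start site itself lay in a gap of FISC replicate 1 in 169 cases (20.7%, 18.1 to 23.6%) and of replicate 2 in 186 (22.8%, 20.0 to 25.8%), and in a gap of both in 113 (13.8%). The 816 start sites lay in 599 regions, and neighbouring start sites can share a gap. The intervals count each start site as separate and do not allow for this. Gaps made up 14.1 and 14.6% of the span between the outer peaks of these regions. The 250 bases before the start site were touched by a gap in 53.7 and 54.4% of cases, and in both libraries in 395 (48.4%). In the reverse class an ASC gap held the start site in 9.21 and 7.89% of 76 cases, with gaps making up 9.03 and 6.73% of the span. The strongest summit lay downstream of the start site in 67.3 and 69.5% of the ASC cases and 69.0 and 67.5% of the FISC cases, at median distances of 202 and 211 bp, and 201 and 213 bp. Summits within the 250 bases before the start site were few in both conditions, between 3.80 and 5.27%.

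Most promoters of fused regions held a GC box. In the 300 bases from 250 before to 50 after the start site, searched on both strands, GGGCGG was found in 77.9% of the 816 promoters, in 84.1% of the 113 whose start site lay in a gap of both FISC libraries, in 67.2% of promoters in regions with 1 peak per library and in 46.2% of all 21262 promoters of the table. The median number of CG was 24, 25, 22 and 13. The CCAAT box stood in 44.0, 47.8, 36.0 and 38.2%. TATAAA stood in 5.88, 5.31, 5.48 and 12.6%. The AP-1 element TGANTCA was found in 4.17, 1.77, 3.73 and 6.99%. Reverse regions had GGGCGG in 77.6% of 76 promoters, close to the fused class. These shares describe letters in a window, and start sites in 1 region share their surroundings.

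Fused regions could be linked to 1486 of 21883 protein-coding genes (6.79%), by start site, gene body or as the nearest gene within 50 kb. They were 11.9% of the 12479 genes with a region seen in all 4 libraries. Start sites of 915 genes were involved. A reverse region was linked to 217 genes (0.992%). Of 399 genes in 21 lists, 63 had a fused region, 74 different regions in all. In 56 of these (75.7%) both ASC libraries covered more bases than both FISC libraries, where the share over all regions in 4 libraries was 57.1%, in 6 fewer, and 61 were joined in all 4 library pairings. Long genes and genes with wide domains have more chances to hold such a region, so list shares are given beside these backgrounds and nothing is called particular to a list.

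Satellite cell identity genes had fused regions in 6 of 21 cases (28.6%). Within the body of Pax7, the regulator that defines satellite cells, a region at chr4:139820784-139827222 held 7 and 4 FISC peaks over 4480 and 4539 bp, and the ASC peak covered 6306 and 6397 bp. The groups did not overlap there. Met, the receptor of hepatocyte growth factor, had a region in its body with 1222 and 1418 bp under 2 FISC peaks each and 2319 and 3027 bp in ASC. At the start site of the homeobox gene Six4 the FISC peaks covered 3599 and 2515 bp and the ASC peak 3794 and 4322 bp. Sdc4 and Sdc3, syndecans of the satellite cell surface, had fused start sites as well: FISC and ASC covered 5509 and 5553 against 5787 and 5576 bp at Sdc4, and 882 and 912 against 1304 and 1157 bp at Sdc3. Megf10, a receptor of satellite cells, had 3 fused regions. In the one with most bridged bases, in the gene body, FISC covered 1851 and 2307 bp and ASC 2457 and 2439 bp. Another in the body had 1073 and 1009 bp in FISC and 228 and 1169 bp in ASC, so that the groups overlapped. At the start site FISC covered 3647 and 3906 bp and ASC 2540 and 2688 bp, and the ASC peak joined the FISC peaks in none of the 4 pairings.

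Of 25 quiescence genes 5 (20.0%) and of 20 Notch pathway genes 3 (15.0%) had a fused region. A region within 50 kb of Hes1, a Notch target found in both lists, had 578 and 515 bp under FISC peaks and 1824 and 1479 bp under the ASC peak. Gas1, a growth arrest gene, was covered at its start site over 3405 and 3046 bp in FISC and 3920 and 4338 bp in ASC. Regions in the body of Rb1, the retinoblastoma gene (2121 and 1958 against 2772 and 2736 bp), and near Cdkn1b, a cyclin-dependent kinase inhibitor (1384 and 1018 against 1689 and 1778 bp), were longer in both ASC libraries too. The Rb1 region also holds the start site of another gene, Lpar6, and cannot be assigned to Rb1 alone. Maml3, a coactivator of Notch, had 2 fused regions, of which that in the body had 578 and 1044 bp in FISC and 2812 and 2772 bp in ASC. Foxo1 and Jag1 did not follow their class. In the body of Foxo1, a transcription factor of quiescence, FISC covered 1285 and 1406 bp and ASC 271 and 472 bp. In the body of Jag1, a Notch ligand, the values were 859 and 1193 bp in FISC and 341 and 352 bp in ASC.

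The cell cycle list had 2 fused genes of 29 (6.90%), both at the start site and both among the promoters shown above. E2f7 was covered over 723 and 493 bp by 2 peaks in each FISC library and over 1545 and 1899 bp by the ASC peak. For Ccne1 the lengths were 1199 and 1220 bp in FISC and 1878 and 2162 bp in ASC. Their shared FISC gaps were 297 and 284 bp wide.

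Myogenic commitment and sarcomere genes had fused regions in 4 of 29 cases (13.8%), 3 of them away from the gene. Tpm1, a tropomyosin, held the widest gaps of this list. At its start site (chr9:67043103-67050352) the FISC libraries had 4 and 2 peaks over 2701 and 1962 bp with gaps of up to 3561 and 4733 bp, and the ASC peak covered 7042 and 7250 bp. A region within 50 kb of Des, the muscle intermediate filament desmin, had 4071 and 3591 bp in FISC and 4605 and 4543 bp in ASC. Near Chrna1, the muscle acetylcholine receptor subunit, the lengths were 442 and 997 against 1481 and 1509 bp. Myod1, the myogenic determination factor, was nearest to 2 neighbouring fused regions, with 1811 and 2020 against 2423 and 2447 bp in the one and 1563 and 2135 against 1620 and 2550 bp in the other. In the other region of Myod1 the groups overlapped.

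Growth factor and MAP kinase genes had fused regions in 8 of 30 cases (26.7%). Spry2, a Sprouty inhibitor, had 7521 and 7945 bp under FISC peaks and 8704 and 8905 bp under the ASC peak at its start site. Spred1 and Spred2, inhibitors of RAS signalling, were covered at the start site over 3637 and 3615 against 4374 and 4792 bp and over 3102 and 2983 against 3653 and 4080 bp. Dusp6, an ERK phosphatase, had 3730 and 4222 bp in FISC and 5409 and 4763 bp in ASC. A region in the body of Egfr, the epidermal growth factor receptor, held 6 and 5 FISC peaks over 5425 and 5208 bp, but its ASC lengths of 4053 and 6395 bp lay on both sides of these. The body of Igf1r, a growth factor receptor, likewise overlapped between conditions in its region with 1986 and 1788 bp in FISC and 1889 and 2166 bp in ASC. Mtor, the kinase of growth control, had 1592 and 1510 against 2028 and 1971 bp at its start site. Another region, in the body of Spred2, was covered less in ASC (495 and 607 bp) than in FISC (1178 and 1427 bp).

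TGF-beta and BMP genes had fused regions in 7 of 21 cases (33.3%). The receptor-regulated SMADs Smad1 and Smad3 were fused in the gene body: Smad1 had 429 and 635 bp in FISC and 3196 and 3555 bp in ASC, and Smad3 had 1087 and 1266 against 1695 and 2016 bp. Smad7, the inhibitory SMAD, had 3 and 5 FISC peaks at its start site over 4622 and 4755 bp and an ASC peak of 6769 and 6530 bp. The ligand gene Tgfb1 had 2093 and 1856 against 3051 and 3123 bp at the start site, and the receptor gene Tgfbr1 2391 and 2115 against 2440 and 2173 bp, where the groups overlapped. Id3, a BMP target, was nearest to 2 fused regions. One had 1176 and 1043 bp in FISC and 1630 and 2428 bp in ASC, and in the other, with 1909 and 2154 against 2094 and 2487 bp, the groups overlapped. The ligand gene Tgfb3 was covered less in ASC, with 4540 and 4817 bp in FISC and 2304 and 2674 bp in ASC, and its ASC peak joined FISC peaks in none of the 4 pairings.

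Wnt and Yap genes (4 of 22, 18.2%) were all fused at the start site. Ajuba, a LIM adaptor of the Hippo pathway, had a shared FISC gap of 1505 bp, with 3229 and 2747 bp under FISC peaks and 5238 and 5259 bp under the ASC peak. The Yap target Ccn1 had 4539 and 5026 against 6040 and 6161 bp, and the Wnt receptors Fzd7 and Fzd1 had 2668 and 2602 against 3265 and 3431 bp and 1901 and 2092 against 2522 and 2568 bp. Immediate early and AP-1 genes (4 of 24, 16.7%) included a region near Klf6, a zinc finger factor, with 1271 and 1022 bp in FISC and 3748 and 3994 bp in ASC. A second region, in the body of Klf6, overlapped between conditions, with 2856 and 3301 against 3299 and 4053 bp. In the body of Nr4a2, an orphan nuclear receptor, 4 and 5 FISC peaks over 2435 and 2119 bp stood against ASC peaks of 3495 and 3468 bp. Zfp36, which destabilises mRNAs, had 8440 and 8468 against 9051 and 9225 bp at its start site, and Egr3, an early growth response factor, had 2387 and 2259 against 2386 and 2610 bp, where the groups overlapped.

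Actin cytoskeleton and adhesion genes (5 of 25, 20.0%) included regions within 50 kb of Myh9, a non-muscle myosin (1208 and 951 against 2681 and 2931 bp), Actg1, gamma actin (747 and 878 against 2723 and 2873 bp), and Rhob, a small GTPase (1328 and 1215 against 2866 and 2857 bp). Pxn, the adhesion adaptor paxillin, had 2816 and 2880 against 4388 and 4367 bp at its start site. Extracellular matrix genes (4 of 23, 17.4%) comprised the laminin genes Lamc1 (in the body, 1935 and 2656 against 3300 and 3679 bp) and Lama2 (at the start site, 2218 and 1711 against 2159 and 2560 bp, overlapping), Tnc, tenascin C (start site, 1315 and 988 against 2097 and 2208 bp), and Sparc, a matrix protein (nearby, 1177 and 1130 against 1876 and 1989 bp). A second region in the body of Lamc1 overlapped between conditions, with 3423 and 3120 against 3156 and 4115 bp.

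Among genes of metabolism and growth, 3 of 17 glycolysis genes (17.6%), 2 of 19 ribosome biogenesis genes (10.5%) and 2 of 21 chromatin genes (9.52%) had a fused region. Eno1, enolase, had 3245 and 3197 bp under FISC peaks and 5635 and 6495 bp under the ASC peak at its start site. Pkm, pyruvate kinase, held 5 and 5 FISC peaks, with 5075 and 5427 against 6557 and 6928 bp, and Hk1, hexokinase, had 1143 and 1297 against 2066 and 2133 bp in its body. Hdac4, a histone deacetylase, had 3346 and 3069 bp in FISC and 2318 and 2600 bp in ASC at its start site and thus was shorter in both ASC libraries. Inflammatory mediators (3 of 23, 13.0%) held the region with most bridged bases of all listed genes except Tpm1: in the body of Nfkb1, a subunit of NF-kappaB, FISC covered 1645 and 1163 bp and ASC 6267 and 6747 bp. Ccl2, a monocyte chemokine, had 1032 and 844 against 4082 and 4170 bp at its start site, and Socs3, an inhibitor of cytokine signalling, had 2597 and 2799 against 3021 and 3140 bp nearby. A second region near Socs3 overlapped between conditions, with 1090 and 1308 against 1010 and 1574 bp.

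**Figure D5:**
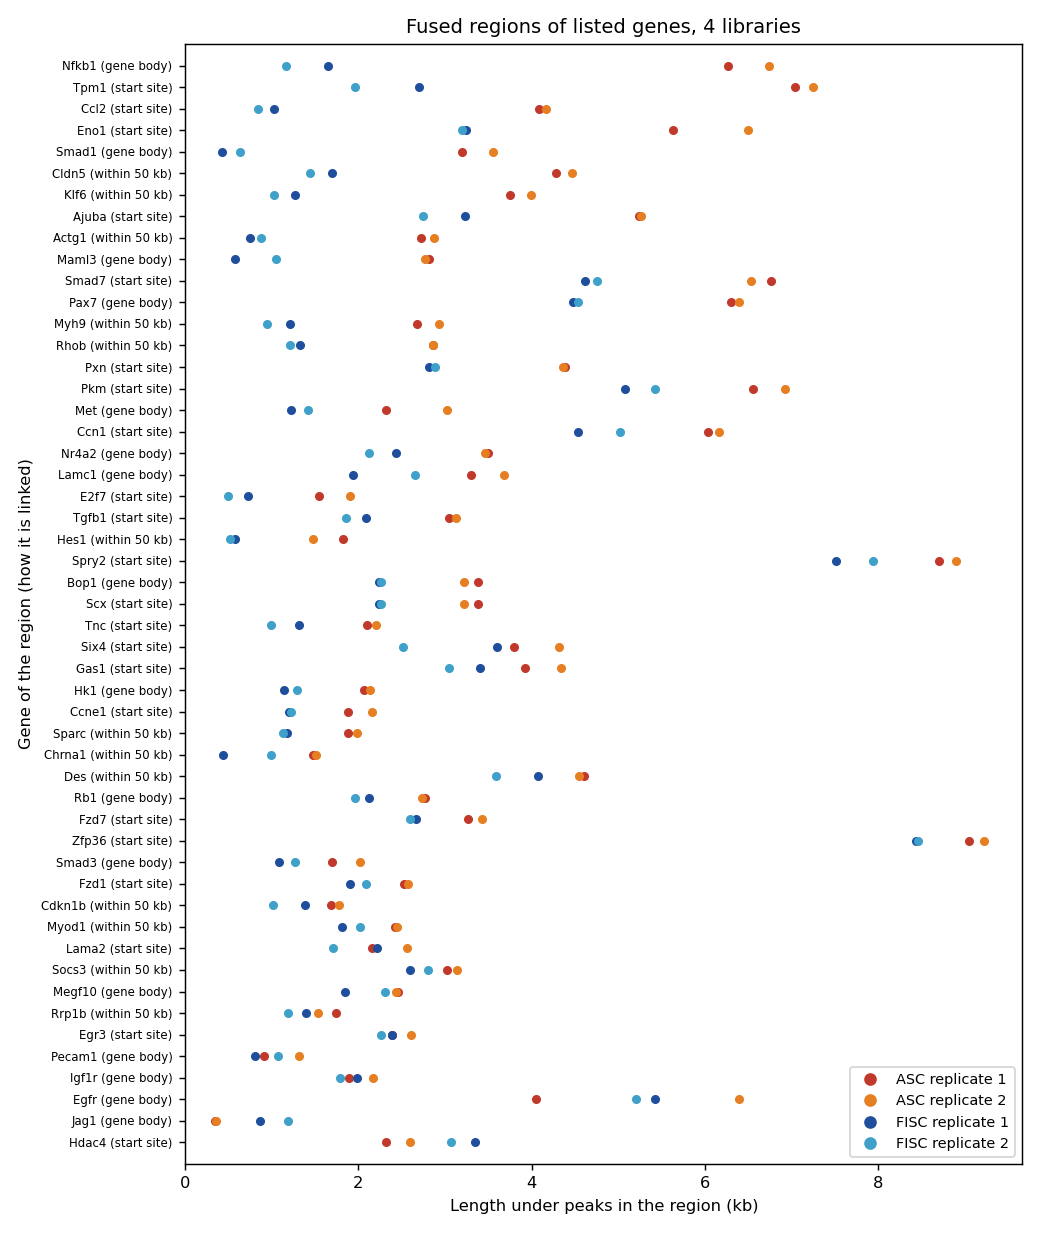
Length under peaks (x axis, kb) in the 4 libraries (points) for the fused regions of listed genes, up to 4 genes a list, ordered by the difference between the ASC and FISC means; brackets give how the gene is linked. Both ASC points lie right of both FISC points at Nfkb1 and Tpm1 at the top and left of them at Jag1 and Hdac4 at the bottom.

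The members that held most FISC peaks were led by a region over the start sites of Myl12a and Myl12b, regulatory light chains of non-muscle myosin (chr17:70989572-71004049). It held 7 and 8 FISC peaks over 9620 and 9187 bp, and the ASC peak covered 14218 and 14326 bp. Pmepa1, an inhibitor of TGF-beta signalling (7 and 5 peaks), Mamstr (5 and 7), the zinc finger gene Zfp516 (5 and 6), Pax7 (7 and 4), the taurine transporter gene Slc6a6 (5 and 6), the formin gene Diaph1 (7 and 4), Egfr (6 and 5), the homeobox gene Hoxa9 (5 and 5) and the semaphorin gene Sema4c (5 and 5) followed. The Slc6a6 region lay between genes, 62211 bp from the start site of Slc6a6, and is named by its nearest gene only. At Mamstr the FISC peaks covered 3134 and 2736 bp and the ASC peak 5022 and 5433 bp. Over Hoxa9 and Hoxa10 the FISC peaks covered 10286 and 9373 bp and the ASC peak 11435 and 11335 bp. At Egfr the ASC and FISC lengths overlapped. Both ASC lengths were above both FISC lengths at the other 9, where 78.1% of fused regions and 57.1% of all regions with a peak in all 4 libraries were so.

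Ranked by bridged bases, a region in the body of Ppargc1b, a coactivator of oxidative metabolism, came first with 7343 bp. Its FISC peaks covered 882 and 505 bp, and its ASC peak covered 8585 and 8455 bp. Iffo2, related to intermediate filament genes, had 5130 bridged bases, and a region between genes nearest to Runx1, a transcription factor (chr16:92925022-92932053), had 5083, with 1303 and 1195 bp in FISC and 6911 and 7032 bp in ASC. Asap1, a regulator of ARF GTPases (4946), the kinase genes Mast4 (4784) and Dapk2 (4721), the zinc finger gene Rreb1 (4501), Tpm1 (4319), a histone gene cluster (4278) and Iqschfp, a read-through gene over Schip1 (4227), completed the 10. In the same order, 3072, 2913, 1300, 2223, 3788, 428, 2717, 4087, 3455 and 0 of these bases lay between the outermost FISC peaks. The rest lay at the flanks. The histone region at chr13:23570347-23576995 holds the start sites of H2ac8, H2bc8, H2bc7, H2ac7 and H3c4, genes of core histones expressed in S phase. It had 5 and 5 FISC peaks over 1631 and 1646 bp and an ASC peak of 6291 and 6579 bp. Histone genes are near copies of each other, and how reads that match several copies were placed is not given in the sources used here.

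Of the linked genes, 132 had 2 or more fused regions and 28 had 3 or more. Gene length was not taken into account, and overlapping genes count the same regions: Iqschfp and Schip1 share both of theirs. Msi2, an RNA-binding protein of the Musashi family, had 5, with 7798 bridged bases in all between chr11:88494472 and 88719798. The one at its start site had 2566 and 2604 bp in FISC and 3704 and 3829 bp in ASC, and another in the body had 661 and 1270 against 5127 and 5287 bp. Dusp5 had a fused region at its start site (1276 and 1337 against 4579 and 4819 bp) and another within 50 kb (659 and 721 against 4012 and 4212 bp). Ccn4, a secreted matricellular protein, had the same arrangement, with 2655 and 2644 against 6755 and 7236 bp at the start site and 622 and 913 against 3783 and 3852 bp nearby. Il34, a cytokine of macrophages, Jdp2, an AP-1 family repressor, Rfx3, a factor of cilium genes, Schip1 and Iqschfp had 2 each. Ahnak, a large scaffold protein, and Cflar, an inhibitor of death receptor signalling, had 3 each. At the start site of Rfx3 the lengths overlapped, with 2884 and 2647 bp in FISC and 2540 and 2907 bp in ASC.

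Just inside the threshold, members with the narrowest gaps were split in FISC by only 76 to 84 bp. These were the start sites of Arhgap23 (76 and 78 bp), Arhgef6 (76 and 79 bp), Fhdc1 (76 and 82 bp) and the region over the start sites of Psma2 and Mrpl32 (84 and 76 bp). Just outside, 2770 regions were split in 1 FISC library alone. Those with the widest gap were a region near Plk2, a polo-like kinase (2942 bp, FISC replicate 2), and the start sites of the tubulin gene Tuba1c (2496 bp, FISC replicate 1), the replication helicase gene Mcm6 (1821 bp, FISC replicate 2) and the linker gene Plec (1529 bp, FISC replicate 2). At Mcm6 the FISC libraries covered 757 and 696 bp and the ASC libraries 3130 and 3231 bp. The median widest gap was 217 bp in members and 148.5 bp in the regions just outside.

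The libraries held between 43092 and 54700 peaks over 33.7 to 57.7 Mb, each ASC list being longer than each FISC list. Background levels estimated from the authors' fold enrichments and p-values were 2.33 and 2.86 reads in ASC and 2.72 and 2.82 in FISC. The estimate for ASC replicate 1 matched only 44.1% of its sampled peaks. Depth is unknown, and its part in these results was not tested. With every list reduced to its best-scoring peaks until all 4 covered the same number of bases, 2158 fused and 5 reverse regions were found. That setting keeps 18090 and 14478 ASC peaks against 42801 and 43092 FISC peaks, which by itself leaves few regions with 2 ASC peaks, so nothing is read from it about list length. With equal peak numbers (43092 in each list) there were 1787 fused and 124 reverse regions. Start sites of 10 satellite cell markers were covered in 9 and 9 cases in ASC and 10 and 10 in FISC, the missing one being Calcr, a receptor of quiescent cells. Of 4 lymphoid markers 0 were covered in each library, of 6 myeloid markers between 0 and 2, of 5 endothelial markers between 1 and 2, of 6 fibro-adipogenic markers 2, of 5 smooth muscle and pericyte markers between 2 and 4, and of 3 Schwann markers 1. Their summed lengths were 0 to 1.89 kb for myeloid, 0.614 to 1.64 kb for endothelial and 1.43 to 1.91 kb for Schwann markers. They were 3.70 to 4.77 kb for fibro-adipogenic markers and largest, 6.55 to 8.06 kb, for smooth muscle and pericyte markers. Most of the latter lay at Acta2 (2.84 to 3.21 kb) and at Des (3.70 to 4 kb), which is also in the myogenic list. Among the lists of other cell types, 2 of 12 endothelial genes had a fused region, Cldn5 (1695 and 1446 against 4285 and 4473 bp nearby) and Pecam1 (811 and 1076 against 911 and 1311 bp in the body, overlapping), as did 1 of 10 Schwann and tendon genes, Scx, a tendon factor whose region (2240 and 2265 against 3380 and 3217 bp) lies in Bop1, a ribosome biogenesis gene. The fibro-adipogenic, myeloid, lymphoid and smooth muscle lists had 0. The marker Des, which had a fused region nearby, is counted in the myogenic list and not in the smooth muscle list. The part of other cells in these results was not tested.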

How the data were processed

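H3K27ac ChIPmentation libraries of FISC (2) and ASC (2) were analysed from the deposited MACS2 narrow peak lists, 1 list per library, in build mm10. The submitters' processing notes name bcl2fastq 2.19 along with BWA, Picard and MACS2, and their settings are not stated there. Fold enrichment is the authors' deposited ratio of summit signal to background, and the −log10 p and −log10 q values are the authors' too. Neither was compared between libraries. Depth is unknown: a background level in reads was solved from fold and p for 3000 sampled peaks per library and matched between 44.1 and 82.8% of them within 0.01 in fold.

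Lists were merged at 1 base of overlap with Python 3.11.15, numpy 2.4.6, scipy 1.17.1 and pandas 2.3.3, checked on simulated peaks. Start sites came from the RefSeq promoter table (GRCm38.p6, 21262 start sites of 17491 genes), and for 2707 other genes from the gene end with more covered bases. A gene was linked within 2 kb of a start site, by its body, or as nearest within 50 kb. All 399 list genes matched. Intervals are 95% Wilson intervals and cover counting error only. No test was run, since the rule used the contrast.

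Regions named are the 10 holding most FISC peaks, the 10 with most bridged bases, up to 4 per list by bridged bases, the 10 genes with 2 or more fused regions and most bridged bases, 4 at each side of the threshold, and satellite cell markers. Further regions of listed genes (the second of Maml3, Myod1, Id3, Klf6, Lamc1 and Socs3, and Sdc4, Sdc3, Foxo1, Spred1, Spred2, Dusp6, Mtor, Tgfbr1, Tgfb3 and the start site and another body region of Megf10) were named after their values were seen. Second regions of Igf1r, Actg1 and Sparc, not described above, were longer in both ASC libraries than in both FISC libraries. Members and lists were chosen with earlier results of these data known. Predicted genes were counted but not named. The region of 1 listed gene is not reported here.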

Additional observations from a re-analysis of the deposited data

How the results depend on the processing

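Fused regions outnumbered reverse regions in all 13 alternatives, by 3.66 to 432 times. The highest ratio, at equal covered length, comes from a setting that keeps 18090 and 14478 ASC peaks against 42801 and 43092 FISC peaks and so removes most ASC splits by construction. Their number was 691 with peaks of at least 5-fold enrichment, 823 and 491 with peaks closer than 300 and 500 bases joined, and 2380 to 2977 with a replicate left out (2977 without ASC replicate 1, 2925 without FISC replicate 1 and 2947 without FISC replicate 2). Between 1202 and 2158 were found in the other alternatives. Reverse regions numbered 105 at −log10 q of at least 5, 58 at 5-fold, 124 with equal peak numbers, 5 at equal covered length, 150, 103 and 77 with peaks closer than 150, 300 and 500 bases joined, 79 where joining in all 4 library pairings was required (chosen after seeing the data), and 465 to 651 with a replicate left out. The share at start sites was 50.7% at −log10 q of at least 5, 57.7% at 5-fold, 40.9, 34.8 and 35.2% with peaks closer than 150, 300 and 500 bases joined, 42.1 to 51.1% with a replicate left out and 51.1% with a window of 5 kb. The covered share of gap bases was 90.6% at equal covered length and 96.5 to 97.9% with a replicate left out. The median gap was 195.5 bp at 5-fold, 208.25 bp at equal covered length, 286, 511.5 and 902.5 bp with peaks closer than 150, 300 and 500 bases joined, and 173 to 213.5 bp with a replicate left out. Joining raises the gap width by its construction, and leaving out a library admits regions on which replicates disagree; the cause of the other shifts was not tested. Of 94 named regions, 61 stayed fused at −log10 q of at least 5, 35 at 5-fold, 63, 34 and 19 under the 3 joining distances, and 91 to 94 with a replicate left out. Leaving out a replicate drops a condition that these regions already met, so nothing is read from the counts of 91 to 94. No paired analysis was possible because the results come from no test. Without read counts the signal inside a gap is unknown, so a gap shows only that the signal fell under the threshold of its library.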
